A study of Rattus norvegicus with 6 samples.

Results

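The miR-741, miR-743a/b and miR-871 to miR-883 family comprised 17 of the 721 entries of the deposited miRNA table, chosen by name only: miR-741, miR-742, miR-743a, miR-743b, miR-871, miR-878, miR-880, miR-881 and miR-883, with every arm listed (rno-miR-741-3p, rno-miR-741-5p, rno-miR-743a-3p, rno-miR-743a-5p and so on). These are the products of 9 precursors, and 8 of the precursors had both a 5p and a 3p arm in the table. Together they held 203764 of 2690909 miRNA reads in 6 rat testis libraries. Of the 17 members, 16 reached 1 CPM (reads scaled to a common total of miRNA reads per library) in at least 3 libraries and entered the test across all miRNAs, whereas miR-880-5p, with 1 read in all, did not. In 13 members each library held at least 10 reads.

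The testes came from adult male Sprague-Dawley rats, with 3 libraries labelled diabetic and 3 labelled normal. Diabetic rats had been made diabetic with streptozotocin (STZ), a toxin of pancreatic beta cells, and were profiled at week 8. By the study's methods, a high-fat diet preceded a single injection of STZ, and control rats were injected with citrate buffer. Those methods do not say whether the controls ate the high-fat diet, and the ages in weeks were not given. Each library was labelled as a separate sample. The labels do not say that the samples were separate animals, so p-values measure the spread between these samples.

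A miRNA precursor is a short hairpin that is cut into a 5p and a 3p strand, and usually 1 of them is loaded into an Argonaute protein and kept while the other is degraded. Bases 2 to 8 of the loaded strand, the seed, pair with target mRNAs, so miRNAs that share a seed share many predicted targets. The genes of this family lie in a cluster on the X chromosome of rodents, arose through tandem duplication, and change quickly between species. They are expressed mainly in the testis, in germ cells and in Sertoli cells, the somatic cells that nurse the germ cells.

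The mature sequences are shown because members that are alike over most of their length mostly carry different seeds. RefSeq (rat assembly GRCr8) held a sequence for 16 of the 17 members. It held none for miR-881-5p. Capitals mark the seed. The 3p strands most like miR-743a-3p were:
miR-743a-3p: gAAAGACGccaaacuggguaga
miR-743b-3p: gAAAGACAccauacugaauaga
miR-742-3p: gAAAGCCAccauguuggguaaa
miR-741-3p: aAAGAUGCcacgcuauguagau
miR-878: gCAUGACAccauacuggguaga
The 5p strands other than that of miR-883 were:
miR-743a-5p: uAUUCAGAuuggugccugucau
miR-871-5p: uAUUCAGAuuggugccggucacau
miR-743b-5p: uGUUCAGAcugguguccaucau
miR-880-5p: uACUCAGAuugguaugaguca
miR-742-5p: uACUCACAugguugcuaauca
miR-741-5p: uACAUAGAuugguaccuauca
The remaining strands were:
miR-871-3p: uGACUGGCaccauacuggauaa
miR-880-3p: uACUCCAUucauucugaguaga
miR-881-3p: uAACUGUGgcauuucugaauag
miR-883-3p: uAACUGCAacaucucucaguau
miR-883-5p: uGCUGAGAgaaguagcaguuacu

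The 16 sequences carried 15 different seeds. Only miR-743a-5p and miR-871-5p had the same one, AUUCAGA, and they were also the most alike pair of the 120 possible pairs, with 20 of 22 compared bases in common. Counting from 1 at the 5′ end of miR-743a-5p, they differed by U17G and U22C. miR-743a-3p and miR-743b-3p shared 18 of 22 bases and differed by G8A, A12U, G17A and G18A. G8A is the last base of the seed, so this pair shared bases 2 to 7 but not the whole seed. miR-741-3p started 1 base further in than miR-743a-3p. Read with that shift they shared 16 of 21 bases. Their seeds differed both through the shift and through C7U, which lies within the seed of miR-743a-3p. Over all pairs of members the median was 42.9% of bases in common, and 18 pairs exceeded 70%. Of the members, 1 shared its seed with a listed miRNA outside the family: miR-741-5p with miR-376c-3p. Every sequence of the family was distinct from all other listed sequences that could be matched (492 of 539 known miRNAs). How the authors shared reads that fit more than 1 miRNA was not stated, so the split between near-identical strands such as miR-743a-5p and miR-871-5p is uncertain.

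The 16 mature sequences lie within 34.5 kb of the minus strand, at chrX:150444098-150478645 in GRCr8. These are the coordinates of the RefSeq sequences, and no rat build is named for the deposited table. In RefSeq gene order the precursor genes were Mir743a, Mir743b, Mir742, Mir883, Mir741, Mir880, Mir878, Mir881 and Mir871. Mir471 and Mir3551 stood between Mir883 and Mir741, and Mir463 between Mir741 and Mir880. Mir742, Mir883 and Mir741 lay within the span of the long non-coding RNA gene LOC120099202, and Mir880, Mir878, Mir881 and Mir871 within that of LOC108349259. Mir743a and Mir743b lay in no other annotated gene. The hairpins were alike to varying degrees. Among the 28 pairs of the 8 hairpins with a sequence, Mir743b and Mir871 had the highest share of aligned bases in common, 74.0%. Mir741 and Mir878 had the lowest, 47.9%, and no pair with Mir741 exceeded 59.4%. Mir743a had no hairpin sequence and was not compared.

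Libraries held from 305476 to 549446 reads, the smallest being diabetic replicate 1, and totals did not separate the groups (exact permutation p = 0.4, two-sided). One read was worth between 1.82 and 3.27 CPM. The tissue label was checked against miR-34c-5p, a miRNA of germ cells, which stood between 268466 and 316725 CPM, and miR-202-5p, a miRNA of Sertoli cells and the gonad, between 3103 and 4322 CPM. In bulk tissue, fewer cells of a type and less RNA per cell cannot be told apart.

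Levels within the family ran from single reads to among the highest of the whole table. miR-741-3p was the leading member, with a rank of 3 to 5 among all 721 entries in every library and 51.9% of the family's reads. miR-743a-3p ranked from 14 to 17 and held 16.6% of the family's reads, and miR-743b-3p ranked from 19 to 22 and held 13.5%. The precursors miR-741, miR-743a and miR-743b together made 87.6% of the family's reads. The ranges of these leading 3p strands did not meet: the lowest miR-741-3p value was 35878 CPM against a highest miR-743a-3p value of 13676, and the lowest miR-743a-3p value was 11736 CPM against a highest miR-743b-3p value of 11224.

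A middle tier followed. miR-743b-5p, miR-881-3p, miR-880-3p, miR-871-3p, miR-743a-5p, miR-883-3p and miR-871-5p stood in this order of mean CPM, and the ranges of each pair of neighbours in it overlapped. They ran from 930 CPM, for miR-871-5p in diabetic replicate 2, to 3146 CPM, for miR-743b-5p in diabetic replicate 1. Below them miR-878 lay between 526 and 670 CPM and miR-883-5p between 199 and 309 CPM, each apart from its neighbours. The scarce members were miR-742-5p (22.7 to 98.2 CPM), miR-742-3p (10.8 to 49.9 CPM), and the near-absent strands miR-881-5p, miR-741-5p and miR-880-5p with 14, 4 and 1 reads over all 6 libraries. A count of 3 reads, which corresponds to 5.46 to 9.82 CPM, was taken as the floor of measurement. miR-741-5p and miR-880-5p were at or below that floor in every library. This floor covers counting error only.

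**Figure D1:**
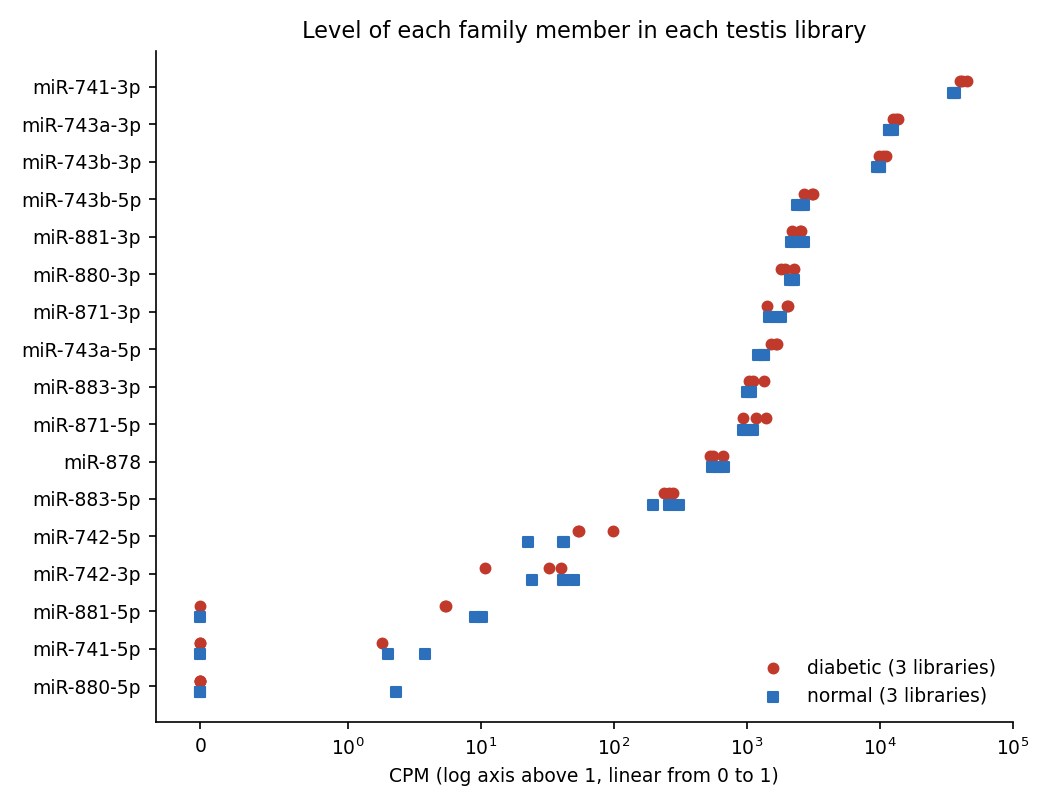
CPM of the 17 members (rows, ordered by mean) in the 3 diabetic (circles) and 3 normal (squares) libraries, on a log axis that is linear between 0 and 1. miR-741-3p lies at or above 35878 CPM in every library, and miR-741-5p, its partner strand, below 4 CPM.

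Position along the X chromosome and level were compared precursor by precursor, with the arms summed. The adjacent miR-743a and miR-743b precursors were at 14738 ± 564 and 13550 ± 697 CPM in diabetic libraries (SD, n = 3 per group). Their next neighbour, miR-742, was at 96.7 ± 33.2 CPM (SD, n = 3). miR-883, adjacent to miR-742, was at 1426 ± 173 CPM, and miR-741, further along, at 42380 ± 2511 CPM (SD, n = 3 per group). At the other end miR-880, miR-878, miR-881 and miR-871 were at 2013 ± 238, 582 ± 72.4, 2433 ± 215 and 2999 ± 571 CPM (SD, n = 3 per group). Normal libraries gave the same order of the 9 means, and adjacent precursors could differ widely in level.

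**Figure D2:**
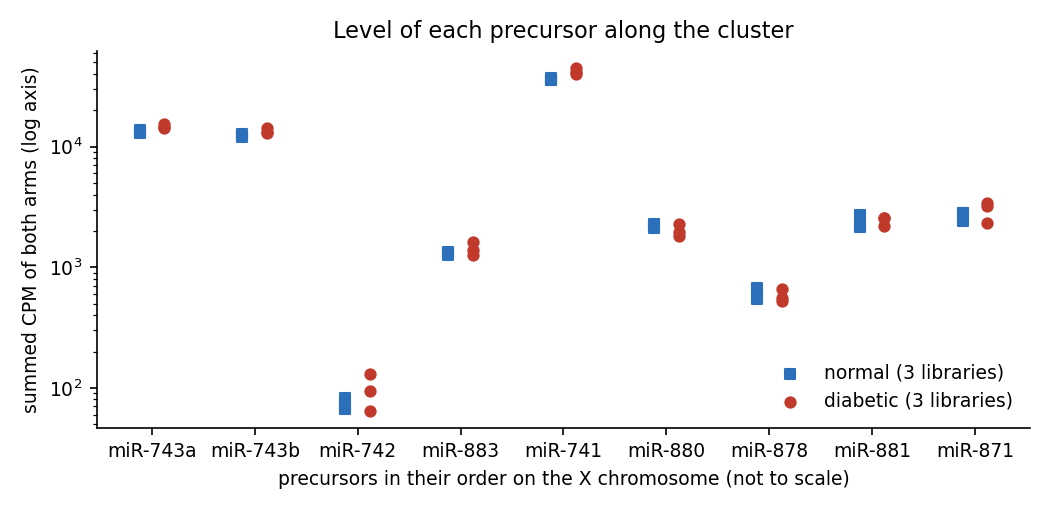
Summed CPM of both arms (log axis) for the 9 precursors, set in their order on the X chromosome but not to scale, with 3 normal (squares) and 3 diabetic (circles) libraries. The miR-742 precursor, between 64.6 and 131 CPM, stands below its neighbours miR-743b and miR-883 in every library.

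Arm usage differed from precursor to precursor. In 7 of the 8 precursors with both arms listed, the 3p strand held more reads than the 5p strand in every library, and miR-742 was the exception. Use of the 3p arm was close to complete for miR-741 (105595 reads against 4), miR-880 (5758 against 1) and miR-881 (6470 against 14). It was partial for the others. The 3p arm gave 89.0% ± 0.793 of miR-743a reads in diabetes and 90.3% ± 0.852 in controls (SD, n = 3 per group). For miR-743b the values were 78.0% ± 2.08 and 79.4% ± 1.19 and for miR-871 61.1% ± 2.37 and 61.9% ± 2.43 (SD, n = 3 per group). For miR-883 they ran from 80.1% to 84.0% and from 76.4% to 84.1%. The 5p share of miR-743b exceeded that of miR-743a in every library.

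The arm ratio, log2((3p CPM + 1)/(5p CPM + 1)), was compared between diabetic and normal libraries for each precursor. For miR-743a it was 2.89, 3.12 and 3.05 in the diabetic and 3.13, 3.13 and 3.38 in the normal libraries. The groups did not overlap, with a difference of -0.195 (exact permutation p = 0.1, the smallest that 3 against 3 libraries allow). Of the family's 8 ratios 1 did not overlap, near the 10.1% among all 178 precursors with both arms listed, so the count is no result about the family. The difference shrank to -0.112 without normal replicate 3 and to -0.131 without diabetic replicate 1.

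For miR-742 the 3p share ran from 16.7% (diabetic replicate 2) to 42.3% (diabetic replicate 3) in diabetes and from 36.4% (normal replicate 2) to 68.8% (normal replicate 1) in controls. The ranges overlapped, and the ratio differed by -1.51 on the log2 scale (exact permutation p = 0.2). This precursor had only 92 reads from the 3p arm and 133 from the 5p arm in all, so its ratio was imprecise. For the other 6 precursors the groups overlapped as well, with exact permutation p-values of 0.2 to 0.9. The ratios of miR-741, miR-880 and miR-881 rest on 5p strands at or near 0 reads.

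**Figure D3:**
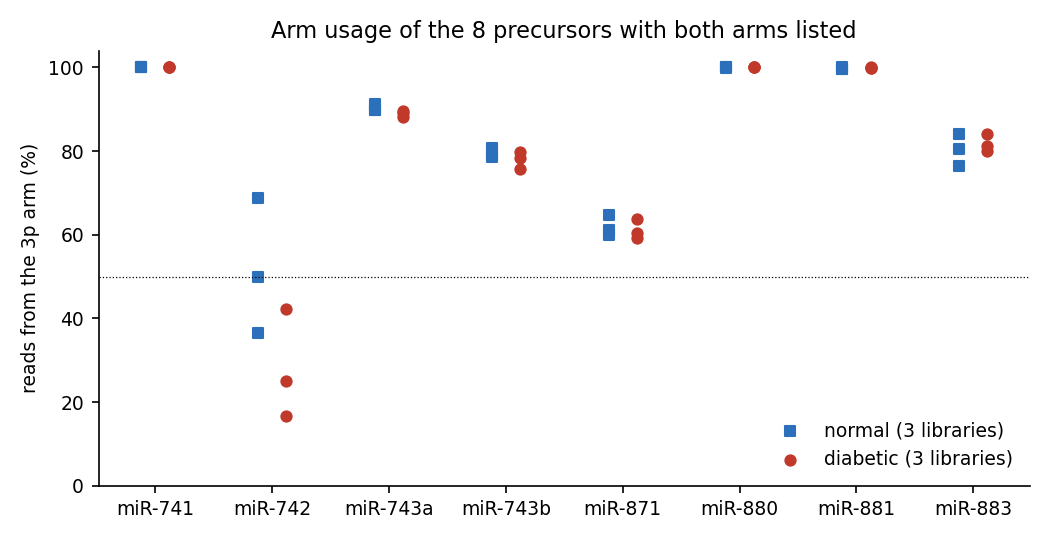
Percentage of a precursor's reads that came from its 3p arm, for the 8 precursors with both arms listed, in 3 normal (squares) and 3 diabetic (circles) libraries. The dotted line marks equal use, and only miR-742 has points below it.

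The comparison of diabetic with normal testis asked whether the level of any member differed. In the limma fit across 578 miRNAs, 3 of the 16 tested members had an unadjusted p under 0.05: miR-741-3p, miR-743a-5p and miR-742-5p. All 3 were higher in diabetic libraries and their groups did not overlap. No member had an adjusted p under 0.05 (0 of 16, lowest 0.348 with Benjamini-Hochberg adjustment). Among all 578 miRNAs 8.82% had an unadjusted p under 0.05, 5.54% in the direction of higher in diabetes, and 0% an adjusted p under 0.05. Values did not overlap between groups for 14.9% of all miRNAs and were higher in diabetes without overlap for 7.96%. With a minimum of 10 reads per library, which 257 miRNAs and 13 members met, the last share was 10.5%, and 6.23% were higher with an unadjusted p under 0.05. The share of members, 3 of 16, was above the shares over all 578 miRNAs. With the minimum of 10 reads, 3 of 13 members was above the shares over the 257. The count is small, however, and members of 1 locus are not independent.

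miR-741-3p, the most abundant member, stood at 41941, 40118 and 45080 CPM in diabetic replicates 1, 2 and 3 and at 35878, 36868 and 36023 CPM in normal replicates 1, 2 and 3. Every diabetic library was above every normal one, and the diabetic libraries were more spread out. The means were 42380 ± 2510 and 36257 ± 535 CPM (SD, n = 3 per group), a 1.17-fold difference. On the log2(CPM + 1) scale the change was 0.22 ± 0.08 (SE, 95% interval 0.06 to 0.39, limma, adjusted p = 0.348, exact permutation p = 0.1). The change was 0.12 with upper-quartile and 0.17 with TMM factors, neither under an unadjusted 0.05. Reads per library ran from 12812 to 24769, so that counting alone would give a coefficient of variation of 0.779% in diabetic libraries, whereas 5.92% was observed.

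miR-743a-5p, whose level enters the arm ratio above, was at 1686, 1516 and 1653 CPM in the diabetic and 1340, 1350 and 1213 CPM in the normal libraries. The lowest diabetic value lay above the highest normal value. Means were 1618 ± 90.1 and 1301 ± 76.3 CPM (SD, n = 3 per group). The log2 change was 0.31 ± 0.11 (SE, 95% interval 0.08 to 0.55, limma, adjusted p = 0.348, exact permutation p = 0.1). With upper-quartile factors it was 0.21 and no longer under an unadjusted 0.05. How reads were split between miR-743a-5p and miR-871-5p is uncertain, and their summed level overlapped between groups. The partner strand miR-743a-3p was at 12518, 13165 and 13676 CPM against 11736, 11846 and 12629 CPM. These groups overlapped, and the log2 change was 0.12 ± 0.08 (SE, 95% interval -0.06 to 0.30, limma, adjusted p = 0.728).

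miR-742-5p, a scarce strand, was at 98.2, 53.8 and 54.6 CPM in the diabetic and 22.7, 42.6 and 41.5 CPM in the normal libraries. These values stand for 30, 20 and 30 reads against 10, 21 and 22. Diabetic replicate 1 was high and normal replicate 1 low, and the remaining libraries of the groups lay close together. The log2 change of 0.93 ± 0.39 (SE) had the highest value of the 16 members (95% interval 0.10 to 1.75, limma, adjusted p = 0.486, exact permutation p = 0.1). Without diabetic replicate 1 it was 0.65 and without normal replicate 1 it was 0.64, neither under an unadjusted 0.05 in limma. The call thus depended on those libraries. With all libraries kept, limma also lost it with upper-quartile factors (unadjusted p = 0.0536) and with reads thinned to the smallest library (0.0886). Limma without the mean-variance trend (unadjusted p = 0.0529) and the DESeq2 Wald test (0.0510) lost it as well. The other strand, miR-742-3p, had 10, 4 and 22 reads against 22, 12 and 22. Its log2 change of -0.58 had a standard error of 0.52 (limma, adjusted p = 0.795). It was -0.03 without diabetic replicate 2, the library with 4 reads, and ran from -0.93 to -0.03 when 1 library was left out.

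Neither strand of miR-743b, the neighbour of miR-743a on the chromosome, had an unadjusted p under 0.05. miR-743b-5p was at 3146, 2685 and 3103 CPM in diabetic and 2597, 2686 and 2396 CPM in normal libraries, so that diabetic replicate 2 fell just below normal replicate 2. Its log2 change was 0.22 ± 0.10 (SE, 95% interval -0.01 to 0.44, limma, adjusted p = 0.551). miR-743b-3p was at 9834, 10657 and 11224 CPM against 9478, 10098 and 10048 CPM, with overlapping groups and a log2 change of 0.10 (standard error 0.09, limma, adjusted p = 0.795). With arms summed, 3 of the 9 precursors, those of miR-741, miR-743a and miR-743b, were higher in diabetes without overlap, beside 8.36% of the 311 known precursors that reached 1 CPM in 3 libraries. The miR-743a precursor stood at 14204, 14681 and 15328 CPM against 13075, 13196 and 13842 CPM, and the miR-743b precursor at 12980, 13342 and 14327 CPM against 12076, 12783 and 12444 CPM (exact permutation p = 0.1 each).

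**Figure D4:**
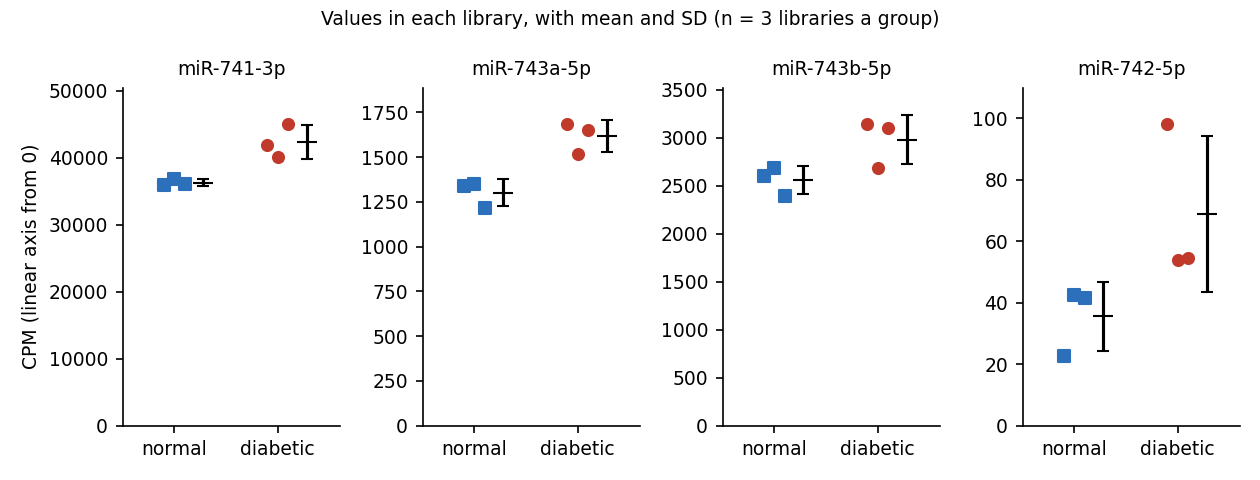
CPM in each library on a linear axis from 0 for miR-741-3p, miR-743a-5p, miR-743b-5p and miR-742-5p, with the mean and SD of 3 normal (squares) and 3 diabetic (circles) libraries beside the points. The groups of miR-743b-5p just overlap (2685 against 2686 CPM), and those of the other panels do not overlap.

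Both strands of miR-871 were lowest in diabetic replicate 2. miR-871-3p was at 2026, 1419 and 2055 CPM in the diabetic and 1682, 1827 and 1483 CPM in the normal libraries. Diabetic replicate 2 was the lowest of all 6, while the other diabetic libraries were the highest. miR-871-5p, the seed partner of miR-743a-5p, followed with 1398, 930 and 1168 CPM against 1120, 999 and 945 CPM, again with diabetic replicate 2 lowest. The log2 changes of 0.13 and 0.17 had standard errors of 0.14 and 0.15 (limma, adjusted p = 0.808 and 0.795). Without diabetic replicate 2 they were 0.30 and 0.33 with unadjusted limma p-values of 0.0348 and 0.0387, and miR-743b-5p came to 0.29 with 0.0194, so that 6 members in place of 3 were under 0.05 (all higher, beside 4.50% of all miRNAs in that fit). Without diabetic replicate 1 the changes of miR-871-3p and miR-871-5p were 0.04 and 0.03, and that of miR-871-3p was 0.03 without diabetic replicate 3 and 0.04 without normal replicate 3. The summed level of the AUUCAGA seed pair was 3084, 2446 and 2821 CPM in diabetic and 2459, 2349 and 2158 CPM in normal libraries. Diabetic replicate 2 fell below normal replicate 1, and the difference of 0.26 on the log2 scale had an exact permutation p of 0.2.

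The strands of miR-880, miR-881 and miR-878, toward the other end of the cluster, did not pass the test either. miR-880-3p was at 1948, 1814 and 2277 CPM in the diabetic and 2230, 2280 and 2132 CPM in the normal libraries. Its log2 change was -0.14 ± 0.11 (SE, 95% interval -0.38 to 0.09, limma, adjusted p = 0.774). miR-881-3p was at 2573, 2180 and 2535 CPM against 2720, 2292 and 2171 CPM, a log2 change of 0.02 (95% interval -0.22 to 0.27). miR-878 was at 556, 664 and 526 CPM against 548, 605 and 670 CPM, a log2 change of -0.06 (95% interval -0.37 to 0.25). In each of these the groups overlapped.

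The same held for the miR-883 strands. miR-883-3p was at 1355, 1035 and 1112 CPM in diabetic and 1058, 1072 and 1002 CPM in normal libraries, where diabetic replicate 1 stood above the other 5. Its log2 change was 0.15 ± 0.13 (SE, limma, adjusted p = 0.795). miR-883-5p was at 259, 239 and 277 CPM against 199, 262 and 309 CPM, a log2 change of 0.03 ± 0.19 (SE). The directions of miR-881-3p and miR-883-5p turned under DESeq2, upper-quartile and TMM scaling. The near-absent strands held 0, 2 and 3 reads against 4, 5 and 0 (miR-881-5p), 0, 0 and 1 against 0, 1 and 2 (miR-741-5p), and 0, 0 and 0 against 1, 0 and 0 (miR-880-5p). A difference in these was not detectable at this depth, and no fold is given.

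**Figure D5:**
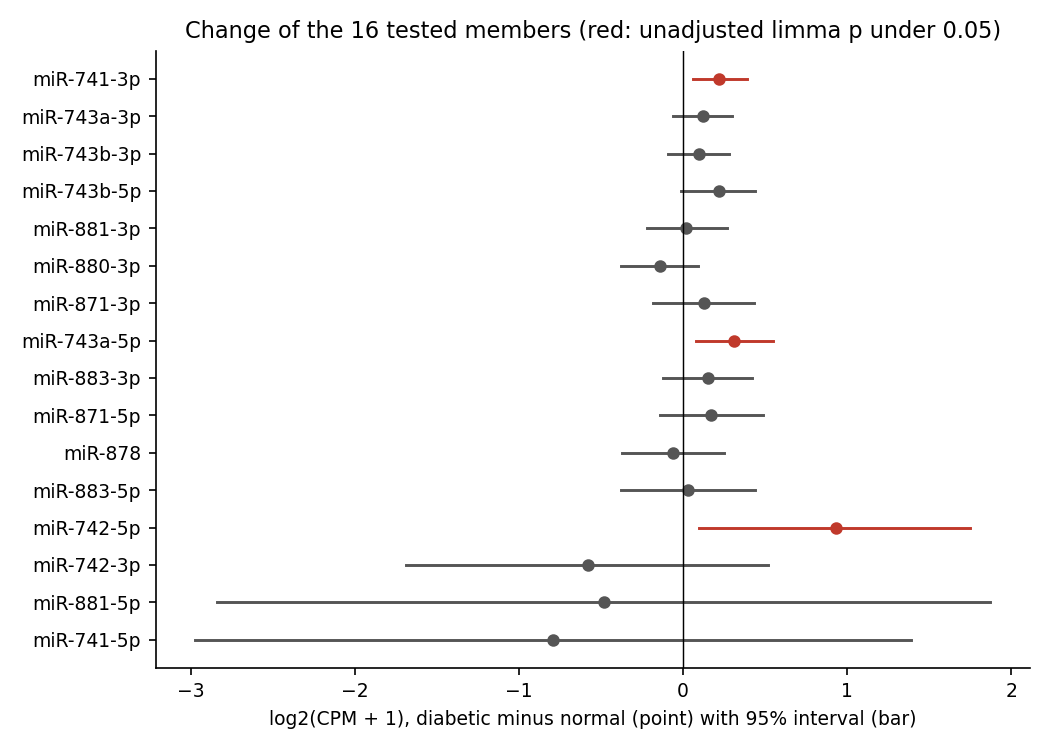
Change in log2(CPM + 1), diabetic minus normal, with its 95% interval from limma for the 16 tested members, ordered by mean CPM from the top. Red marks the 3 members with an unadjusted p under 0.05. The intervals of the 3 lowest rows, with 4 to 92 reads in all, are wide.

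By direction alone, 11 of the 16 tested members were higher and 5 lower in diabetic libraries, against 50.5% higher among all miRNAs tested. Among the 13 members with that minimum of 10 reads 11 were higher, against 57.6% of all such miRNAs. The median log2 change was 0.11 over the 16 members and 0.13 over the 13, beside 0.00 and 0.04 over all miRNAs of the same kind. Members share 1 locus and the same libraries, and are not independent of each other. With upper-quartile scaling, which moved the median of all miRNAs from 0.0046 to -0.1009, 8 of the 16 members were higher, and the median of the members was 0.00. With TMM or DESeq2 size factors 9 of the 16 were higher.

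On the whole reads recovered from the CPM values, the edgeR quasi-likelihood test gave the same 3 members an unadjusted p under 0.05 (0.0227 for miR-741-3p, 0.0230 for miR-743a-5p and 0.0291 for miR-742-5p). Over all 578 miRNAs, edgeR called 9.52% at an unadjusted and 0.346% at an adjusted p under 0.05. The DESeq2 Wald test gave 0.0312, 0.0144 and 0.0510 for these members, with 6.75% and 0.173% of all miRNAs called. Neither tool gave a member an adjusted p under 0.05. In limma without the mean-variance trend 0 members had an unadjusted p under 0.05, and the p of miR-741-3p was 0.188.

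As a whole the family held 7.94%, 7.65% and 8.48% of miRNA reads in diabetic replicates 1, 2 and 3 and 7.07%, 7.23% and 7.11% in normal replicates 1, 2 and 3. The groups did not overlap, with means of 8.02% ± 0.421 and 7.13% ± 0.0823 (SD, n = 3 per group, exact permutation p = 0.1). miR-741-3p accounted for most of the difference of 0.887 percentage points. Without it the family held 3.78% ± 0.170 and 3.51% ± 0.0301 of reads (SD, n = 3 per group), a difference of 0.275 points, and the groups still did not overlap (exact permutation p = 0.1). Within the family, miR-741-3p took 52.8% ± 0.361 of reads in diabetes and 50.8% ± 0.184 in controls (SD, n = 3 per group).

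Other X-linked miRNAs, miR-463, miR-465 and miR-471, chosen by name, served as a comparison. Their 6 listed arms held 1.69% ± 0.0964 of diabetic and 1.61% ± 0.119 of normal reads (SD, n = 3 per group), with overlapping groups. The ratio of the family to these arms was 4.74 ± 0.283 in diabetes and 4.44 ± 0.310 in controls (SD, n = 3 per group). Diabetic replicate 2, at 4.44, lay below normal replicate 1, at 4.78, so the groups overlapped (log2 difference 0.0951, exact permutation p = 0.2). A difference between the family and these arms was not shown. The log2 difference ran from 0.0517 (without normal replicate 3) to 0.150 (without normal replicate 1) when 1 library was left out, was 0.0557 without diabetic replicate 1, and was 0.0309 without the most abundant member of each set. The wider list of 14 related arms tested adds miR-201, miR-509, miR-511 and miR-547. Of these 14 arms, 1 had an unadjusted p under 0.05 in limma, beside 8.82% of all miRNAs tested. It was miR-547-3p, named after its value was seen, at a mean of 17166 CPM the most abundant of them, with a log2 change of -0.20 and a standard error of 0.08 (limma, adjusted p = 0.486). Of the 14, 8 were higher and 6 lower in diabetes, with a median log2 change of 0.03. miR-511 lies on chromosome 17 and not on X, and without its 2 arms the count was 6 higher and 6 lower. Groups did not overlap for 3 of the 14 arms, beside 14.9% of all miRNAs tested. miR-201-5p and miR-463-5p, also named after their values were seen, were higher in diabetes by 0.20 each on the log2 scale. miR-547-3p was lower.

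Summed markers of other cell types were set beside the family's share. All 9 marker lists were present, with 0 rows at 0 reads. The 2 miR-202 arms of Sertoli cells and the gonad stood at 4102 to 4467 CPM in diabetic and 3262 to 3693 CPM in normal libraries, and the 2 arms of endothelial miR-126a at 11722 to 13783 against 8662 to 11086 CPM, both without overlap. The miR-202 sum was carried by miR-202-5p, since miR-202-3p was at 130 ± 12.7 against 150 ± 28.9 CPM (SD, n = 3 per group), with overlap. Liver miR-122 moved the other way, at 936 to 1372 against 1839 to 2786 CPM (1 row). Among all miRNAs tested, taken singly, 14.9% did not overlap between groups, and 7.96% were higher in diabetes without overlap. The 6 germ-cell rows of miR-34b, miR-34c and miR-449a were mostly miR-34c-5p, at 286986 ± 10910 against 295956 ± 24822 CPM (SD, n = 3 per group). Their sum overlapped, at 311954 to 333902 against 307039 to 356036 CPM. So did the 4 rows of contractile cells (85959 to 96015 against 79267 to 97409 CPM), the 2 of red blood cells (495 to 671 against 602 to 644 CPM) and the 5 of white blood cells (495 to 652 against 594 to 764 CPM). The 4 rows of skeletal muscle (30.8 to 58.9 against 22.6 to 38.7 CPM) and the 9 of epithelium (107 to 141 against 132 to 158 CPM) also overlapped. The part of these cell types in the family's values was not tested.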

How the data were processed

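Small RNA was sequenced from rat testis in 6 libraries, 3 diabetic and 3 normal, grouped by their labels. By the study's methods the authors removed adaptors from single-end reads, counted small RNAs, annotated known miRNAs through miRBase and expressed them as CPM. The deposited CPM values were rounded to 1 decimal, are headed TPM, and sum to the same total in each library. The submitters' processing notes name Bowtie 0.12.2, HISAT2 2.0, StringTie 1.3.0 and the mouse build mm8 without their roles. The extraction text in the labels describes an mRNA library, and the series design and methods, which describe miRNA sequencing, were followed.

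Whole reads were recovered from the CPM by finding, per library, the smallest total whose CPM steps give whole reads summing to that total (tolerance 0.05 CPM), which held for 100% of values. The test was limma 3.58.1 in R 4.3.3 (eBayes with trend) on log2(CPM + 1), over miRNAs reaching 1 CPM in 3 or more libraries, with p-values two-sided and Benjamini-Hochberg adjusted over all 578. The change of a scarce miRNA is understated on that scale. Summed shares, arm ratios, seed sums and single members were compared by exact permutation (two-sided), where 0.1 is the smallest p, so that no adjustment over the 11 library quantities can bring any under 0.05. edgeR 4.0.16 and DESeq2 1.42.0 on the recovered reads were alternatives. The fits were tested on simulated data, with changes larger than the estimate for any member. All members are named. Other miRNAs named are the testis checks miR-34c-5p and miR-202, lists of cell type markers and of related miRNAs, and the 5 whose levels most resembled the family sum. Members and lists were chosen with earlier results of these data known. Chi-square over degrees of freedom for pairs of libraries within a group ran from 8.23 to 28.4, so none was counted as a duplicate. Coordinates, sequences and gene order come from RefSeq (GRCr8).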

Additional observations from a re-analysis of the deposited data

How the results depend on the processing

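Dropping the trend from eBayes left 0 members under an unadjusted 0.05 in place of 3. With upper-quartile factors it was 1, a different member (miR-880-3p, log2 change -0.25), so that 0 were higher. The cause was not tested. The count ran from 2 to 6 when 1 replicate was left out, the 6 coming without diabetic replicate 2, and was 2 to 4 under the other settings. No member had an adjusted p under 0.05 in any of the 19 alternatives (0 in each).

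Over the 16 tested members, direction and side of the threshold held in 180 of 205 fits with another setting, while 9 lost and 2 gained an unadjusted p under 0.05 and 14 changed sign. With a replicate left out they held in 79 of 96 fits, while 2 lost and 4 gained it and 11 changed sign. An unadjusted p under 0.05 was kept in 16 of 19 alternatives by miR-741-3p, in 17 by miR-743a-5p and in 13 by miR-742-5p. miR-743b-3p came to -0.01 with upper-quartile factors. miR-881-3p came to -0.01 (DESeq2 size factors), -0.08 (upper quartile), -0.03 (TMM), -0.04 with thinned reads, -0.0038 with edgeR and -0.01 with the DESeq2 Wald test, and miR-883-5p to -0.0045, -0.08, -0.02, -0.01, -0.03 and -0.03 under the same settings. miR-881-5p came to 0.27 with thinned reads. When 1 replicate was left out, miR-878 ran from -0.16 to 0.01, miR-881-3p from -0.04 to 0.12, miR-881-5p from -1.62 to 0.42 and miR-883-5p from -0.14 to 0.17.

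The family's share, with differences of 0.275 to 1.11 percentage points, kept its direction under other denominators, without miR-741-3p and without each replicate. The ratio to miR-463, miR-465 and miR-471 and the seed pair kept theirs without each replicate. Other scalings were not run for the share and the seed pair. The arm ratio of miR-880 came to -0.0430 with a pseudocount of 10 CPM. Without 1 replicate the arm ratio of miR-743a ran from -0.244 to -0.112, of miR-871 from -0.130 to 0.0350, of miR-880 from -0.138 to 0.740, of miR-881 from -0.435 to 1.57 and of miR-883 from -0.0499 to 0.305.

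Libraries with the same replicate number shared only that number. Their deviations from the group means correlated by 0.00648, -0.0688 and -0.0894 over 257 miRNAs, and with the replicate block 3 members had an unadjusted and 0 an adjusted p under 0.05. Depth limits miR-742, with at most 30 reads of its 5p strand in a library, and the 3 near-absent strands.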

Other observations

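Among 244 other miRNAs that had 10 or more reads in all libraries, those whose log2(CPM + 1) followed the summed family most closely over the 6 libraries lay outside the cluster. They were miR-328a-3p (Pearson r = 0.958), miR-330-5p (0.944), miR-363-3p (0.912), miR-598-3p (0.897) and miR-126a-3p (0.897), the last a miRNA of endothelium. All 5 were higher in diabetic libraries in the limma fit, by 0.31, 0.62, 0.40, 0.67 and 0.41 on the log2 scale. That direction followed from how they were picked, since the family sum was itself higher in every diabetic than in any normal library. Their r-values are the 5 highest of 244 over 6 libraries that share their scaling, so they are given as a description only.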
